A study of Homo sapiens with 36 samples.

Results

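DNA replication and G1/S genes are a set of 43 genes whose proteins license, start and carry out the copying of DNA, or drive the passage from the first gap phase (G1) of the cell cycle into the phase of DNA synthesis (S). They were listed by name and followed across A549 cells, an established line grown from an adenocarcinoma of the lung, exposed to cigarette smoke extract (CSE, cigarette smoke bubbled through culture medium). Each gene was read from the transcript cluster (the probes of 1 gene) that carried its symbol alone, or from the one with the highest mean where there were several, which gave 43 of the 18417 genes that could be named among 33297 transcript clusters. The 36 arrays fall into 12 groups of 3. Cells exposed to CSE 1%, CSE 5% or CSE 10% and control cells in the same low-serum medium without CSE were collected after 1, 3 and 5 weeks. Cultures were starved of serum for a day before the start, the medium with CSE was renewed daily, and cells were subcultured weekly. Weeks differ in time and passage and may differ in array run, and these cannot be told apart.

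Replication starts at origins, where the origin recognition complex, CDC6 and CDT1 load the MCM helicase onto DNA during G1. The helicase is then switched on by CDC45 and the GINS complex, and polymerases held by the sliding clamp PCNA copy both strands. Most of these genes are switched on together at the end of G1 by transcription factors of the E2F family, which the retinoblastoma protein holds back until cyclin D and cyclin E kinases phosphorylate it. In a growing cell line their mRNA is therefore commonly read as a sign of how many cells are in, or about to enter, S phase. In RNA from whole cultures, fewer cells in S phase and less mRNA per cell cannot be told apart.

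The promoters were searched for letters that E2F proteins are known to bind. RefSeq (GRCh38.p14) promoters, from 250 bases before to 50 bases after the start of transcription, were at hand for 39 of the 43 genes and not for CCNE2, GINS4, MCM4 and MCM5. The letters TTTCCCGC, TTTCGCGC, TTTGCCGC or TTTGGCGC, searched on both strands and allowed to overlap, stood in the promoters of 22 of these 39 genes, against 3.99% of the 27305 genes with a promoter in the table. The shares for the letters CCAAT were 23 of 39 genes against 39.7%, for the GC box GGGCGG 28 of 39 against 48.3%, and for TTTGAA, the core of the CHR element of genes that peak in mitosis, 1 of 39 against 18.2%. A match is a description of the letters and not evidence of binding, and 8 of the 39 genes have more than 1 promoter in the table. The 120 bases just upstream of the start are shown for E2F1 itself, for 4 other members with matches there (MCM6 and CDT1 of licensing, GINS2 of helicase activation and the clamp PCNA), and for CCNE1, whose expression departs from the others below. CCNE1 had no match there, but CDC45, ORC1, RRM2 and TK1 also had none in their promoters, so the lack of a match does not set CCNE1 apart. Capitals mark the E2F letters, in MCM6 a pair of overlapping matches on opposite strands. The positions are chr20:33686386-33686505 (minus strand) for E2F1, chr2:135876444-135876563 (minus) for MCM6, chr16:88803669-88803788 (plus) for CDT1, chr16:85688955-85689074 (minus) for GINS2, chr20:5126623-5126742 (minus) for PCNA and chr19:29811871-29811990 (plus) for CCNE1.
E2F1: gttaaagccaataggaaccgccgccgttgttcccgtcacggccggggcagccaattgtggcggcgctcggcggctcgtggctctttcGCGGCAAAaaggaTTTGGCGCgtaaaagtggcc
MCM6: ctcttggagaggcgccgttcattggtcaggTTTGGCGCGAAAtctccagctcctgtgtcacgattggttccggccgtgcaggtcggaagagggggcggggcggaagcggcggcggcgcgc
CDT1: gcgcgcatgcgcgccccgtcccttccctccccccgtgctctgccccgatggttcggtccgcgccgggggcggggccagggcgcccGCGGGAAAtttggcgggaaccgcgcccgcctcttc
GINS2: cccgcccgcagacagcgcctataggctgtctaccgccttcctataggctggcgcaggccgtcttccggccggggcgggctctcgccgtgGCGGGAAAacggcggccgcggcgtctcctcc
PCNA: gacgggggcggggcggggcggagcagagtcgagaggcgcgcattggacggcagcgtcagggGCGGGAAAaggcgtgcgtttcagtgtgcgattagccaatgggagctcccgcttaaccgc
CCNE1: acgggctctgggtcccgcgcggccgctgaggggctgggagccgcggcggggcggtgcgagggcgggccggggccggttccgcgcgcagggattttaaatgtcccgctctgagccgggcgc

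The keratins KRT8 and KRT18 and the aldo-keto reductase AKR1C1, which A549 cells express highly, lay at mean log2 levels of 13.37, 13.28 and 13.29, in the top 1% of transcript clusters. The 11 markers of other cell types lay between 3.87 (PTPRC, of leukocytes) and 7.67 (COL1A1, a collagen of fibroblasts), of which COL1A1 and DES (6.86) were above the median of the transcript clusters, and HBB ranged from 5.29 to 7.93 over the arrays. Of the markers of alveolar type II cells, the surfactant genes SFTPC and SFTPB and the regulator NKX2-1 were at 6.14, 6.20 and 5.57, below the median level of the arrays. The titles of the 3 control arrays of 5 weeks give 5 weeks and their descriptions give 3 weeks, and the titles were followed. These arrays stood apart, with a standard deviation of their log2 values of 2.15 to 2.21 against 2.25 to 2.31 on the other 33 arrays. At 5 weeks, a median of -0.14 to -0.17 (log2) over all transcript clusters lay behind each comparison with them, and values at 5 weeks are therefore also given against the control cells of 3 weeks.

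The members were low in all cells at 1 week except those with CSE 1%, highest in control cells and with CSE 1% at 3 and 5 weeks, and lower the more CSE the cells had received at 3 weeks. The median log2 level of the 43 genes was 7.37 in control cells, 8.02 with CSE 1%, 7.26 with CSE 5% and 7.12 with CSE 10% at 1 week. At 3 weeks it was 8.61, 8.50, 8.02 and 7.80 in the same order, and at 5 weeks 8.51, 8.54, 8.24 and 7.90. The median over all transcript clusters lay between 6.73 and 6.84 in all 12 groups. The group with the lowest mean was CSE 10% at 1 week for 33 of the 43 genes, and the highest was control cells at 3 weeks for 19, control cells at 5 weeks for 12, CSE 1% at 5 weeks for 8 and at 3 weeks for 3, and CSE 5% at 5 weeks for 1. The widest ranges between groups were those of RRM2, the regulated subunit of the reductase that makes deoxynucleotides, with 3.30 log2 units, of GINS2, a subunit of the GINS complex, with 3.10, and of GINS1 with 2.98. The narrowest were those of E2F2 with 0.78, GINS3 with 0.81 and PRIM2, the large primase subunit, with 0.93.

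**Figure D1:**
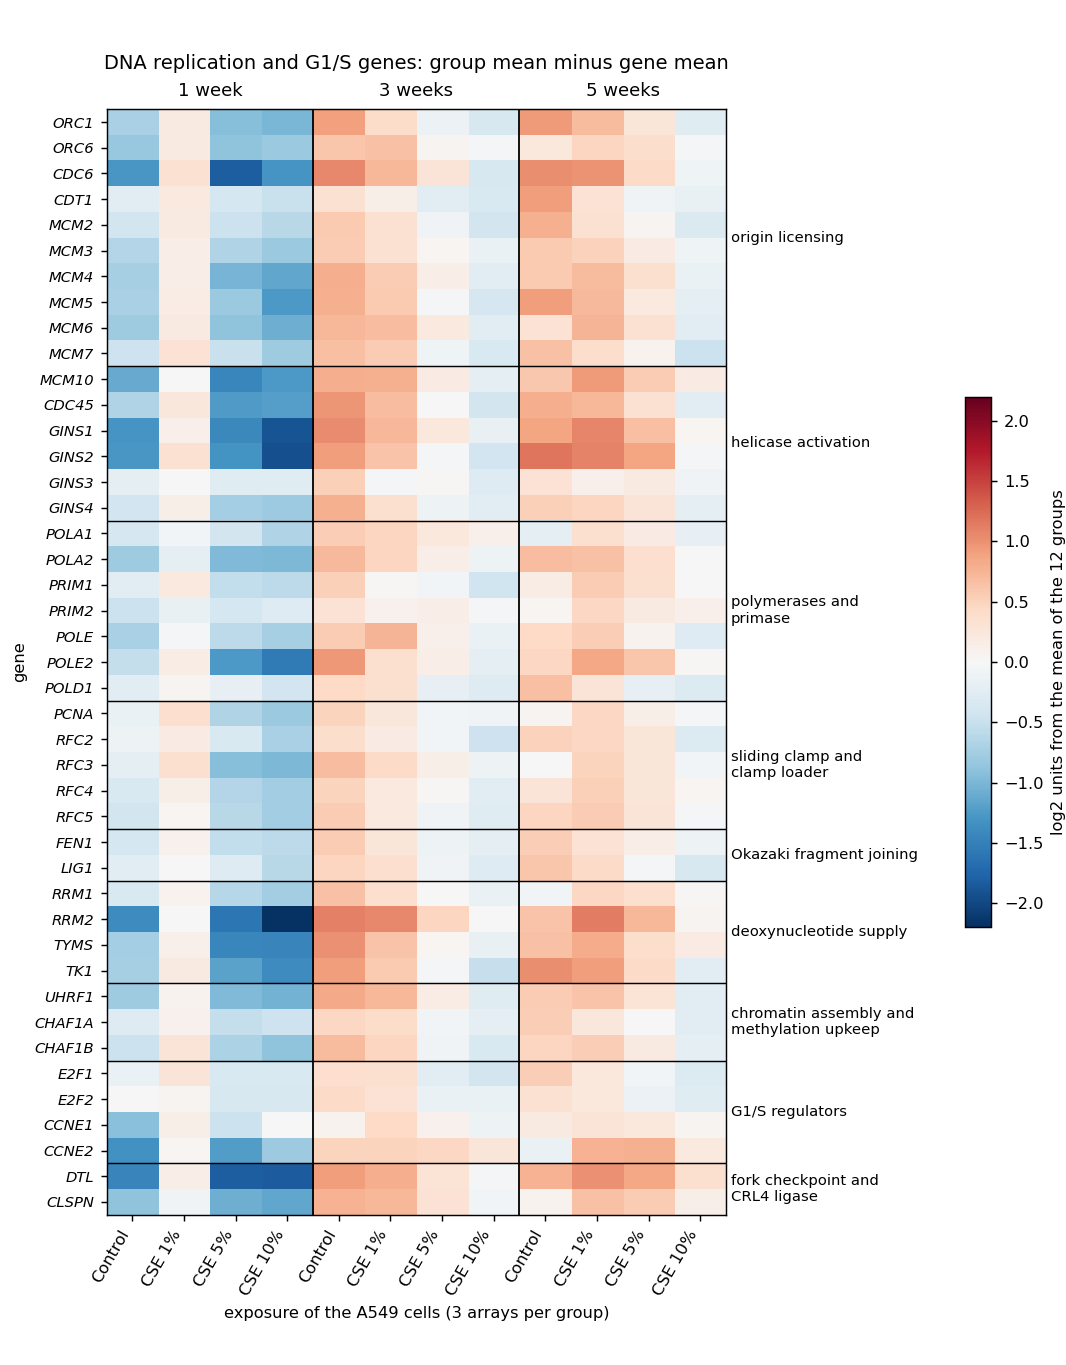
Mean log2 level of each member (rows, by role) in each group of 3 arrays (columns, by week and CSE concentration), as the difference from that gene's mean over the 12 groups. The 1-week columns are low except for CSE 1%, and colour fades with CSE concentration at 3 weeks, where the median level of the members is 8.61 in control cells and 7.80 with CSE 10%.

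After 1 week, CSE 1% raised most replication genes: 35 of the 43 members were higher than in control cells at an adjusted p under 0.05 and 8 did not pass the test. The median log2 fold change of the members was 0.69. Over all transcript clusters 3.41% were higher, 1.90% were lower and the median was -0.03. CDC6, which helps to load the helicase, read 9.22, 9.23 and 9.10 (log2) on the arrays with CSE 1% and 7.79, 7.43 and 7.48 on the control arrays. No array with CSE 1% came near a control array, and the log2 fold change was 1.62 (standard error, SE, 0.17, adjusted p = 2.1e-07), or 3.07-fold. GINS2 read 9.52, 9.51 and 9.40 with CSE 1% and 8.16, 7.90 and 7.51 in control cells, for a log2 fold change of 1.62 (SE 0.15, adjusted p = 2.0e-08). DTL, the substrate receptor through which the CRL4 ubiquitin ligase destroys CDT1 in S phase, read 9.17, 9.05 and 9.01 with CSE 1% and 7.69, 7.45 and 7.28 in control cells, for a log2 fold change of 1.60 (SE 0.12, adjusted p = 5.5e-10). RRM2 read 8.73, 8.85 and 8.51 with CSE 1% and 7.63, 7.25 and 7.12 in control cells, for a log2 fold change of 1.36 (SE 0.12, adjusted p = 1.1e-08). These 4 genes all lay higher on each CSE 1% array than on each control array, as did 41 of the 43 members, against 10.9% of all transcript clusters. By role, all 10 licensing genes rose, from 0.46 (CDT1) to 1.62 (CDC6), and so did all 4 genes of deoxynucleotide supply, from 0.42 (RRM1) to 1.36 (RRM2). Of the 6 genes that activate the helicase 5 rose, with GINS3 at 0.21, of the 5 of the clamp and its loader 4 rose, with RFC2 at 0.29, and of the 7 polymerase and primase genes 3 rose, POLE2 (0.69), POLE (0.67) and POLA2 (0.59). E2F1 rose by 0.43 while E2F2 had 0.06 (SE 0.11, adjusted p = 0.83). Beyond a 2-fold change with a log-odds (B) above 0, the study's threshold, were 9 members, against 0.243% of all transcript clusters. These rises are relative to control cells of the same week: against all 9 control arrays of the 3 weeks joined, 0 of the 43 passed in limma, and 0 at an unadjusted p under 0.05. The joined arrays include control cells of 3 and 5 weeks, in which these genes lay higher than at 1 week. That comparison therefore cannot tell whether the rise at 1 week holds.

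CSE 5% and CSE 10% did not raise these genes at 1 week. With CSE 5%, 7 of the 43 members fell and 1 rose, against 4.84% lower and 5.99% higher over all transcript clusters, and 35 did not pass the test. With CSE 10%, 23 fell and 1 rose, against 8.44% and 8.27%. The medians of the members were -0.20 and -0.33. POLE2, the second subunit of the leading-strand polymerase epsilon, fell most at both concentrations. It read 6.93, 6.73 and 6.61 in control cells, 5.88, 6.22 and 5.95 with CSE 5%, and 5.92, 5.53 and 5.73 with CSE 10%, for log2 fold changes of -0.75 with CSE 5% and -1.03 with CSE 10% (SE 0.15, adjusted p = 8.8e-04 and 7.3e-06). Neither concentration overlapped with the control arrays. PCNA read 9.19, 9.05 and 9.25 with CSE 10% and 9.89, 9.84 and 9.75 in control cells, for a log2 fold change of -0.66 (SE 0.087, adjusted p = 1.1e-06), and with CSE 5% it fell by 0.51. TYMS, the thymidylate synthase, fell by 0.71 with CSE 10% and by 0.69 with CSE 5%, and RFC3, of the clamp loader, by 0.76 and 0.72. With CSE 10% all 5 genes of the clamp and its loader and all 4 of deoxynucleotide supply fell, beside 5 of the 10 licensing genes. MCM3, a subunit of the helicase, read 7.59, 7.49 and 7.57 with CSE 10% and 7.74, 7.68 and 7.74 in control cells (log2 fold change -0.17, not past the test), and CDC6 had -0.03 with CSE 10% but fell by 0.53 with CSE 5%, a call that was lost without any one of 5 of the 6 arrays compared (adjusted p = 0.051 to 0.21). For 38 of the 43 members the mean with CSE 1% lay above that of the control cells and the mean with CSE 5% below it, an order that 13.1% of all transcript clusters showed. Between the concentrations, 38 members were lower with CSE 5% than with CSE 1% (3.77% of all), CDC6 most with -2.15 (SE 0.17, adjusted p = 3.5e-10), and 3 were lower with CSE 10% than with CSE 5% (2.18% of all), namely GINS2 (-0.61), RRM2 (-0.58) and RFC2 (-0.36). CCNE1 was higher with CSE 10% than with CSE 5% by 0.46 (1.09% of all higher). These 4 calls were 2 without replicate 2 of either concentration.

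**Figure D2:**
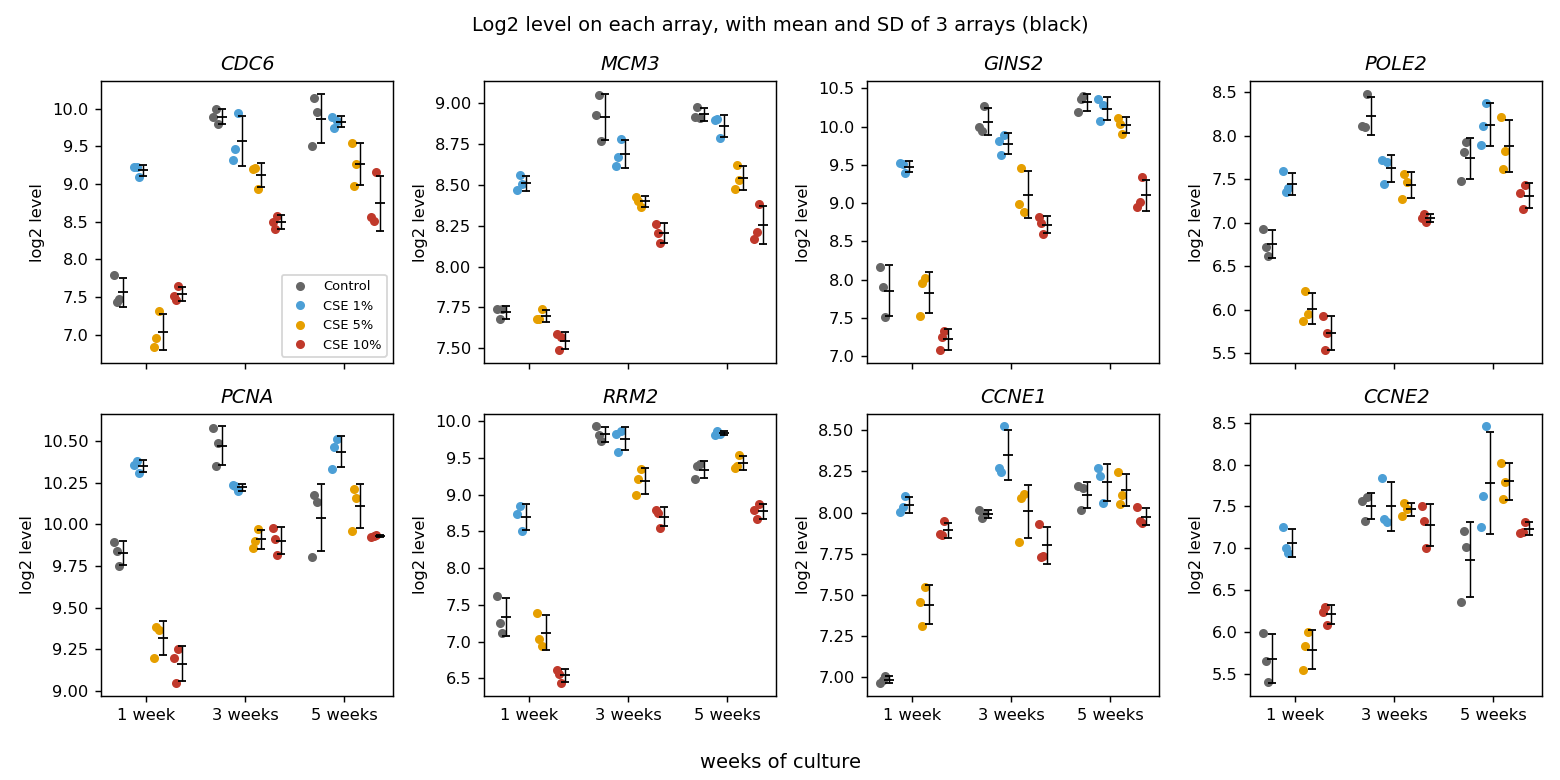
Log2 level on each array (coloured points, 3 per group, control to CSE 10% from left to right within a week) with the mean and SD of the group in black, for 8 members. CDC6, GINS2 and RRM2 are high with CSE 1% and low in the other 3 groups at 1 week and step down with concentration at 3 weeks, while CCNE1 and CCNE2 with CSE 10% lie only 0.19 and 0.22 below control cells there.

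In control cells themselves, more members passed the test between 1 and 3 weeks than between 3 and 5 weeks. All 43 members were higher in control cells at 3 weeks than at 1 week, against 6.23% of all transcript clusters, with a median log2 difference of 1.20, and on each gene the 3 arrays of 3 weeks lay above those of 1 week (12.1% of all). RRM2 read 9.93, 9.81 and 9.73 at 3 weeks and 7.63, 7.25 and 7.12 at 1 week, a log2 difference of 2.49 (SE 0.12, adjusted p = 2.5e-14), or 5.61-fold. DTL was higher by 2.38 and GINS1 by 2.34, and the smallest difference was that of E2F2, with 0.42 (SE 0.11, adjusted p = 0.0093). The level in control cells of 1 week enters every comparison at 1 week. Between 3 and 5 weeks, 16 members were lower and 1 higher in control cells, against 21.8% lower and 31.7% higher over all transcript clusters. POLA1, the catalytic subunit of polymerase alpha, was lower by -0.77 (SE 0.13, adjusted p = 2.7e-05), RRM1 by -0.71 and CLSPN by -0.68, and CDT1 was higher by 0.58 (SE 0.12, adjusted p = 1.8e-04). The count of 17 was 8 without control replicate 1 of 5 weeks and 10 without control replicate 1 of 3 weeks.

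At 3 weeks the replication genes were lower with CSE in a graded way. With CSE 10%, 41 of the 43 members fell, while 12.5% of all transcript clusters were lower and 14.0% higher, with a median log2 fold change of -0.83 beside 0.01 over all. With CSE 5%, 39 fell, while 9.93% of all were lower and 9.70% higher, with a median of -0.61. With CSE 1%, 9 fell and 1 rose, against 5.81% and 5.67%, with a median of -0.23. The number changed with CSE 1% was 5 in place of 10 without CSE 1% replicate 2. The median shift of the housekeeping genes at 3 weeks was -0.15, -0.17 and -0.20 (log2) with CSE 1%, 5% and 10%. Relative to it 39 members fell with CSE 10%, 37 with CSE 5%, and 3 fell and 2 rose with CSE 1%. The means stood in the order control, CSE 1%, CSE 5%, CSE 10% from high to low for 37 of the 43 genes, against 10.2% of all transcript clusters. MCM3 read 8.92, 9.05 and 8.77 in control cells, 8.62, 8.67 and 8.78 with CSE 1%, 8.43, 8.40 and 8.36 with CSE 5%, and 8.26, 8.21 and 8.14 with CSE 10%. The arrays of CSE 5% and CSE 10% did not overlap with each other or with the control arrays. Its log2 fold changes were -0.23, -0.52 and -0.71 with rising concentration (SE 0.069, adjusted p = 0.030, 2.0e-06 and 5.6e-09), of which the one with CSE 1% no longer passed without replicate 1 or 2 of either group. Against the control cells, 15 members fell beyond 2-fold with B above 0 with CSE 10% (1.06% of all) and 1 with CSE 5% (0.544% of all), ORC1, a subunit of the origin recognition complex, at -1.03.

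With CSE 10% at 3 weeks the largest falls were spread over the roles. TK1, the thymidine kinase of S phase, read 8.60, 8.61 and 8.37 with CSE 10% and 9.87, 10.26 and 9.75 in control cells, for a log2 fold change of -1.43 (SE 0.17, adjusted p = 2.5e-07), or 2.70-fold lower. CDC6 read 8.50, 8.40 and 8.58 with CSE 10% and 9.89, 10.00 and 9.80 in control cells, for a log2 fold change of -1.40 (SE 0.17, adjusted p = 3.6e-07). CDC45, the partner that joins the helicase when it fires, read 7.21, 7.23 and 7.13 with CSE 10% and 8.46, 8.65 and 8.63 in control cells, for a log2 fold change of -1.39 (SE 0.11, adjusted p = 2.0e-10). In these 3 genes each CSE 10% array lay over 1 log2 unit below each control array. All 10 licensing genes fell with CSE 10%, from -0.64 (ORC6) to -1.40 (CDC6), and the 6 genes of the helicase subunits MCM2 to MCM7 from -0.71 to -1.17. All 6 genes of helicase activation fell (median -1.12), all 7 of the polymerases and primase (median -0.72), with PRIM2 (-0.35) and POLA1 (-0.44) least, all 5 of the clamp and its loader (median -0.79), and FEN1 and LIG1, which trim and seal Okazaki fragments, by 0.77 and 0.76. The 4 genes of deoxynucleotide supply fell by 0.79 (RRM1) to 1.43 (TK1). UHRF1, which brings the maintenance DNA methyltransferase to new DNA, fell by 1.10 and CHAF1B, of the histone chaperone CAF-1, by 1.03. E2F1 read 7.89, 7.82 and 7.82 with CSE 10% and 8.64, 8.65 and 8.57 in control cells (log2 fold change -0.77, SE 0.099, adjusted p = 7.2e-07), and E2F2 fell by 0.57. The 2 members that did not pass were CCNE1 (-0.19) and CCNE2 (-0.22). Of the steps between concentrations, 30 members were lower with CSE 5% than with CSE 1% (2.68% of all), a count that was 18 without CSE 1% replicate 3 and 19 without CSE 5% replicate 1. Between CSE 10% and CSE 5%, 3 were lower (0.757% of all), MCM6 (-0.47), UHRF1 (-0.43) and RFC2 (-0.40). That count was 0 without CSE 10% replicate 3 or CSE 5% replicate 2 and 1 without CSE 5% replicate 3.

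**Figure D3:**
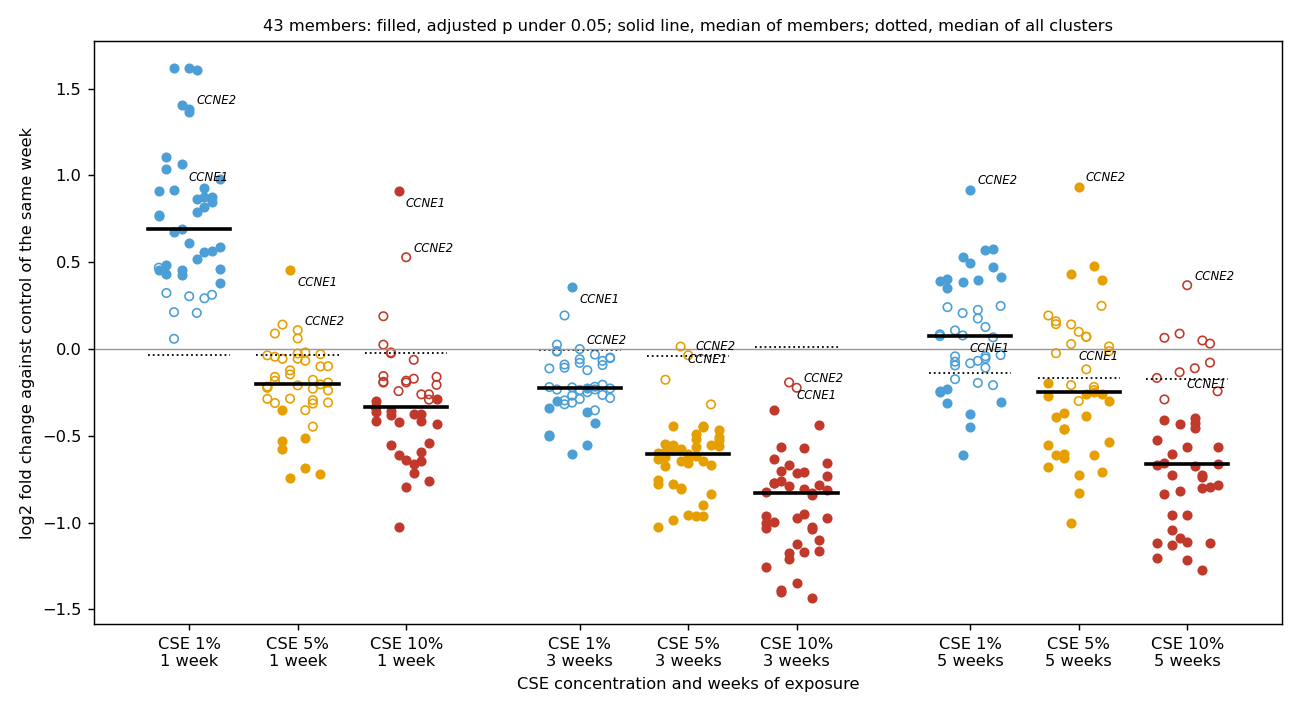
Log2 fold change of each of the 43 members (points) against control cells of the same week, by CSE concentration and week. Filled points passed an adjusted p of 0.05, solid lines are the members' medians (0.69 with CSE 1% at 1 week, -0.83 with CSE 10% at 3 weeks) and dotted lines the medians of all transcript clusters. At 1 week CCNE1 is the topmost point with CSE 5% and CSE 10% (0.46 and 0.91).

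At 5 weeks the fall with CSE 10% was again seen in most members, and with CSE 1% and CSE 5% the members parted. With CSE 10%, 32 of 43 fell (39.6% of all transcript clusters were lower and 21.9% higher), with a median of -0.66 beside -0.17 over all, and 9 fell beyond 2-fold with B above 0 (2.06% of all). TK1 read 8.72, 8.85 and 8.79 with CSE 10% and 10.10, 10.00 and 10.08 in control cells, for a log2 fold change of -1.27 (SE 0.17, adjusted p = 6.9e-07). GINS2 read 8.95, 9.02 and 9.34 with CSE 10% and 10.19, 10.36 and 10.40 in control cells, for a log2 fold change of -1.22 (SE 0.15, adjusted p = 1.8e-07). ORC1 read 6.74, 6.58 and 6.69 with CSE 10% and 7.99, 7.77 and 7.86 in control cells, for a log2 fold change of -1.20 (SE 0.10, adjusted p = 2.0e-10). None of these overlapped with the control arrays. Of the licensing genes 9 of 10 fell (median -1.10), of those of helicase activation 6 of 6 (median -0.78), and of the clamp and its loader 2 of 5, RFC2 by 0.80 and RFC5 by 0.52, with PCNA at -0.11.

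With CSE 5% at 5 weeks, 22 members fell and 4 rose, against 40.3% lower and 23.0% higher over all transcript clusters, a share of falls near that of all. With CSE 1%, 8 fell and 12 rose, against 33.5% and 20.3%, a split that was 5 and 14 relative to housekeeping genes and 12 and 9 after quantile normalization. The falls with CSE 1% included CDT1, MCM2 and ORC1 of licensing, POLD1, FEN1, CHAF1A and E2F1, and the rises PCNA, RFC3, RRM1, RRM2, POLA1, PRIM1, PRIM2 and POLE2. CDT1 read 7.68, 7.35 and 7.27 with CSE 1% and 8.23, 7.94 and 7.97 in control cells, for a log2 fold change of -0.61 (SE 0.12, adjusted p = 1.2e-04), and with CSE 5% it fell by 1.00. RRM1, the catalytic subunit of ribonucleotide reductase, read 9.41, 9.64 and 9.83 with CSE 1% and 8.73, 9.31 and 9.25 in control cells, for a log2 fold change of 0.53 (SE 0.11, adjusted p = 3.5e-04), and with CSE 5% it rose by 0.43. POLA1 rose by 0.58 with CSE 1% and by 0.40 with CSE 5%, and CLSPN, the claspin that passes the signal of stalled forks to CHK1, by 0.57 and 0.48. Control replicate 1 lay lowest of the control arrays in RRM1, POLA1 and CCNE2, and without it 10 members in place of 20 changed with CSE 1%. RRM1, POLA1 and CLSPN are also among the members that were lower in control cells at 5 than at 3 weeks, and CDT1 the 1 that was higher.

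Set against the control cells of 3 weeks, a comparison chosen after seeing the data, the parting at 5 weeks was much smaller. With CSE 10%, 40 of the 43 members were lower (13.0% of all transcript clusters), with a median of -0.74, and CCNE1, CCNE2 and PRIM2 did not pass. With CSE 5%, 29 were lower (9.50% of all), with a median of -0.39. With CSE 1%, 3 were lower (4.58% of all), GINS3, MCM7 and FEN1. RRM1 then had -0.18 with CSE 1% (adjusted p = 0.36), POLA1 -0.19 (adjusted p = 0.44) and CDT1 -0.03 (adjusted p = 0.92). Against the control arrays of weeks 1 and 3 joined, which mix low and high levels of these genes, 9 members rose with CSE 1% (6.15% of all), 4 rose and 1 fell with CSE 5% (11.7% and 11.8%), and 1 rose and 6 fell with CSE 10% (13.9% and 14.5%). Within the exposed cells of 5 weeks, which no control array enters, the means stood in the order CSE 1%, CSE 5%, CSE 10% from high to low for 41 of the 43 members, against 22.2% of all. Of the 43, 12 were lower with CSE 5% than with CSE 1% (1.26% of all) and 17 lower with CSE 10% than with CSE 5% (1.80% of all), GINS2 by -0.92 (SE 0.15, adjusted p = 3.5e-04) and RRM2 by -0.67 most. The 12 were 3 without CSE 1% replicate 1, 5 without CSE 1% replicate 2 or CSE 5% replicate 2 and 7 without CSE 5% replicate 3. The 17 dropped to 8 when CSE 10% replicate 2 was left out, to 10 for CSE 5% replicate 1, and to 11 for CSE 10% replicate 1 or CSE 5% replicate 3.

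**Figure D4:**
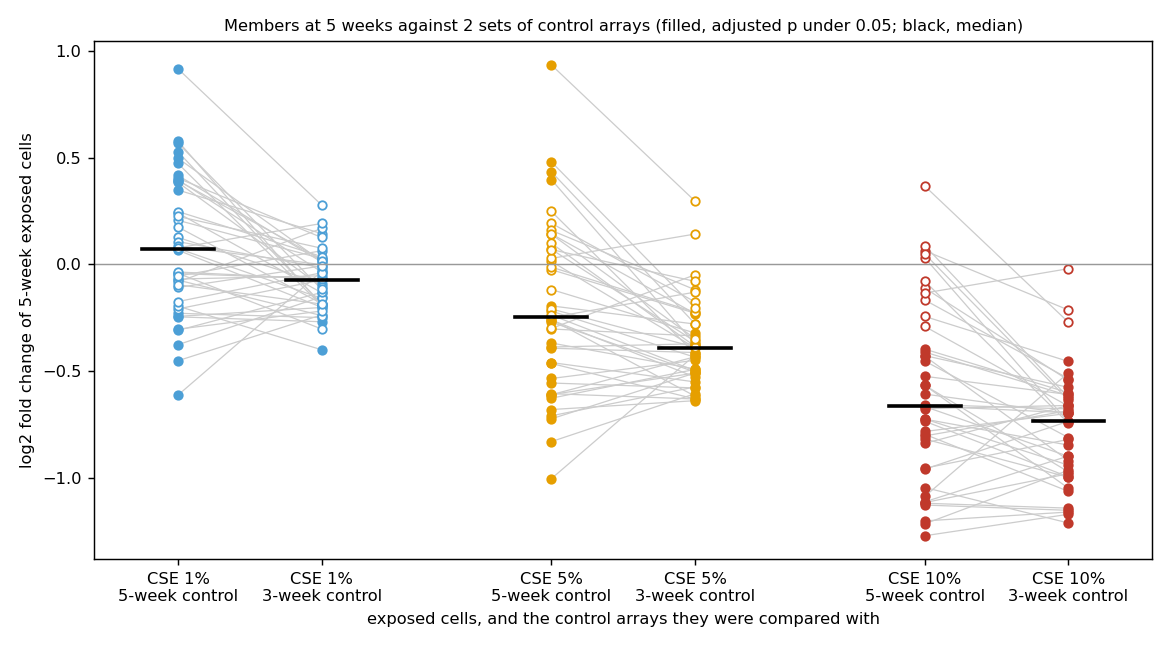
Log2 fold change of the 43 members (points joined by grey lines) in exposed cells of 5 weeks against control cells of 5 weeks (left of each pair) and of 3 weeks (right). Filled points passed an adjusted p of 0.05 and black bars are medians, which lie at 0.07 and -0.07 for CSE 1%, -0.25 and -0.39 for CSE 5%, and -0.66 and -0.74 for CSE 10%.

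The E-type cyclins, which activate the kinase CDK2 at the G1/S border, departed from the replication machinery in part of the comparisons. With CSE 1% at 1 week both rose, as most members did. CCNE1 read 6.96, 6.98 and 7.0 in control cells, 8.01, 8.03 and 8.10 with CSE 1%, 7.46, 7.31 and 7.55 with CSE 5%, and 7.87, 7.86 and 7.95 with CSE 10% at 1 week. Each exposed array lay above each control array, and the log2 fold changes were 1.06, 0.46 and 0.91 with rising concentration (SE 0.085, adjusted p = 1.2e-09, 3.6e-04 and 2.7e-09). CCNE1 was the 1 member called higher with CSE 5% and with CSE 10% at 1 week. At 3 weeks it read 8.27, 8.25 and 8.52 with CSE 1% and 8.01, 7.97 and 8.0 in control cells, a rise of 0.36 (SE 0.085, adjusted p = 0.0047), with 0.01 and -0.19 with CSE 5% and CSE 10%. At 5 weeks its log2 fold changes of 0.08, 0.03 and -0.13 with CSE 1%, 5% and 10% did not pass the test. The effect of CSE 10% on CCNE1 was smaller at 3 weeks than at 1 week by 1.10 (SE 0.12, adjusted p = 2.7e-07), and the level with CSE 10% itself differed by -0.09 between these weeks.

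CCNE2 read 7.25, 7.0 and 6.94 with CSE 1% and 5.99, 5.65 and 5.41 in control cells at 1 week, for a log2 fold change of 1.38 (SE 0.22, adjusted p = 1.2e-04). With CSE 10% it read 6.24, 6.30 and 6.08, all above the control arrays, but its log2 fold change of 0.53 did not pass the test (adjusted p = 0.11). At 3 weeks its log2 fold changes lay between 0.00 and -0.22 and did not pass. At 5 weeks it read 6.36, 7.21 and 7.02 in control cells, 7.26, 7.62 and 8.46 with CSE 1%, and 8.02, 7.58 and 7.79 with CSE 5%, for log2 fold changes of 0.92 with CSE 1% and 0.93 with CSE 5% (SE 0.22, adjusted p = 0.0013 and 7.1e-04). Control replicate 1 lay lowest and CSE 1% replicate 3 highest, and against the control cells of 3 weeks the values were 0.28 and 0.30 and did not pass (adjusted p = 0.53 and 0.40).

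Within the exposed cells, the members were higher at 3 weeks than at 1 week at all 3 concentrations. With CSE 1%, 18 of 43 were higher (11.5% of all transcript clusters), with CSE 5% 38 (9.68% of all) and with CSE 10% 33 (14.2% of all). RRM2 led with CSE 1% (1.07) and with CSE 10% (2.16), and DTL with CSE 5% (2.11, SE 0.12, adjusted p = 3.8e-13). E2F1, E2F2, CDT1 and POLD1 did not pass at any of the 3 concentrations, with differences from -0.09 to 0.28. From 3 to 5 weeks few changed: with CSE 1% 3 were higher (PRIM1, POLE2 and RFC5, 3.58% of all), with CSE 5% 3 (GINS2 by 0.91, DTL by 0.54 and RFC5 by 0.36, 0.694% of all) and with CSE 10% TYMS by 0.36 (2.78% of all). Leaving out 1 array moved these counts. That with CSE 1% was 0 without replicate 2 of 3 weeks and 1 without replicate 2 or 3 of 5 weeks, that with CSE 5% was 1 without replicate 1 or 3 of 3 weeks or replicate 3 of 5 weeks and 6 without replicate 2 of 3 weeks, and that with CSE 10% was kept without replicate 1 of 3 weeks alone. The effect of CSE against the control cells was lower at 3 weeks than at 1 week for 35 members with CSE 1% (2.74% of all), 12 with CSE 5% (1.54%) and 28 with CSE 10% (4.46%). The 12 were 7 without control replicate 2 or CSE 5% replicate 1 of 3 weeks. Since the control cells differed between these weeks in every member, that difference is part of each of these values.

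Genes of the same pathway outside the 43 were taken from lists, with up to 5 named per list by their smallest p over the 9 comparisons with control cells. Of 46 other replication factors, 19 rose with CSE 1% at 1 week (3.41% of all transcript clusters) and 20 fell while 1 rose with CSE 10% at 3 weeks (12.5% and 14.0% of all). MYBL2, an E2F target and transcription factor of the cell cycle, rose by 1.14 with CSE 1% at 1 week and fell by 1.87 with CSE 10% at 3 weeks. The histone chaperone ASF1B, the origin firing factor TICRR and the PCNA partner PCLAF took the same course, with 1.12, 1.03 and 1.08 with CSE 1% at 1 week and falls of 1.53, 1.27 and 1.44 with CSE 10% at 3 weeks. RRM2B, the p53-induced subunit of ribonucleotide reductase that serves cells outside S phase, went the other way from RRM2. It rose by 0.73 and 0.87 with CSE 10% at 1 and 3 weeks, where RRM2 fell by 0.79 and 1.12. At 5 weeks RRM2B had 2.31 with CSE 10%, but in control cells it was itself lower at 5 than at 3 weeks by -0.95, and RRM2 had -0.57 against control cells of 5 weeks and -1.05 against those of 3 weeks.

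Of 29 mitosis genes, 24 rose with CSE 1% at 1 week, 17 fell with CSE 10% at 1 week and 26 fell with CSE 10% at 3 weeks, with medians of 0.80, -0.56 and -1.26, while 3.41% of all transcript clusters were higher, 8.44% lower and 12.5% lower in these comparisons. All 29 were higher in control cells at 3 weeks than at 1 week (6.23% of all). With CSE 1% at 3 weeks 14 of the 29 mitosis genes fell, beside 9 of the 43 replication genes and 5.81% of all. PLK1, a kinase of mitotic entry, fell by 2.02 with CSE 10% at 3 weeks, AURKA, the Aurora kinase of the spindle poles, by 1.93, the cyclin genes CCNB1 and CCNB2 by 1.65 and 1.77, and FOXM1, the transcription factor of late cell cycle genes, by 1.75.

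Among 21 genes of cyclin D, the cell cycle kinases and the RB and E2F families, CDK2, the partner of cyclin E, rose by 0.70 with CSE 1% at 1 week and fell by 0.91 with CSE 10% at 3 weeks. CCND1, cyclin D1, rose by 0.37, 0.54 and 0.43 with CSE 1%, 5% and 10% at 1 week, where the replication genes moved in both directions. The repressor E2F6 and the RB relative RBL2 rose by 0.36 and 0.42 with CSE 10% at 3 weeks, as did the E2F partner TFDP2 by 0.36. With CSE 10% at 3 weeks 8 of the 21 fell and these 3 rose, a share of rises close to the 14.0% of all transcript clusters, of which 12.5% were lower. Of 6 CDK inhibitors measured, CDKN1A, which encodes p21 and blocks entry into S phase, rose by 0.93 with CSE 10% at 1 week and had 0.35 at 3 weeks, not past the test. CDKN1B, which encodes p27, rose by 0.36 with CSE 5% at 3 weeks and had 0.17 with CSE 10%. CDKN1C, CDKN2B and CDKN2D lay between -0.26 and 0.05 at 1 and 3 weeks and passed no test there. At 5 weeks CDKN1A rose again with CSE 10%, by 0.68, while it fell by 0.48 with CSE 1% and had -0.15 with CSE 5%, not past the test. CDKN1B rose by 0.83, 0.83 and 0.60 with CSE 1%, 5% and 10% at 5 weeks. CDKN1C (-0.36, -0.46 and -0.47) and CDKN2D (-0.29, -0.36 and -0.30) were lower there in the same order. CDKN2B was lower with CSE 5% (-0.35) and CSE 10% (-0.39), and its -0.20 with CSE 1% did not pass. Of all transcript clusters, 33.5%, 40.3% and 39.6% were lower and 20.3%, 23.0% and 21.9% higher in these comparisons. In control cells CDKN1B was lower at 5 than at 3 weeks by -0.59, while CDKN1A, CDKN1C and CDKN2D were higher by 0.47, 0.36 and 0.32.

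The median of 18 housekeeping genes, for comparison, lay between -0.24 and 0.03 in the 9 comparisons with control cells. Among the 13 A549 and alveolar markers, 4 fell and 2 rose with CSE 10% at 3 weeks, against 12.5% and 14.0% of all transcript clusters. The mean level over the 13 ran from 10.09 to 10.14 on the arrays with CSE 10% and from 10.21 to 10.23 on the control arrays. At 5 weeks 7 fell and 2 rose with CSE 10%, against 39.6% and 21.9% of all. Among the falls were KRT19 by 1.27, EPCAM by 1.02 and KRT7 by 0.89. AKR1C1 stood higher, with means of 13.33 with CSE 10% and 13.06 in control cells, as did ALDH1A1 with 13.3 and 12.9. CDH1 hardly differed (10.68 and 10.66). The mean level over the 13 markers ran from 9.86 to 9.95 with CSE 10% and from 10.21 to 10.25 in control cells, beside the fall of 32 of the 43 members. The mean level over 11 markers of other cell types ran from 5.81 to 5.97 with CSE 10% and from 5.96 to 6.05 in control cells at 3 weeks. Of these markers HBB alone passed the test there, with -1.36. HBB was lower in all 9 comparisons with control cells, by -0.90 to -2.07. At 5 weeks the mean level over the 11 markers ran from 5.88 to 5.95 with CSE 10% and from 6.27 to 6.46 on the control arrays, the highest of all groups. Of the 11 markers 8 were lower and 1 higher with CSE 10% at 5 weeks, against 39.6% and 21.9% of all. Their part in the results was not tested.

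For UHRF1 and CLSPN the array has a second transcript cluster. That of CLSPN moved like the first, with 0.61 against 0.82 with CSE 1% at 1 week and -0.63 against -0.83 with CSE 10% at 3 weeks. The second of UHRF1, at a mean log2 level of 6.46 against 8.10, did not in these comparisons. It had -0.15 with CSE 1% at 1 week and -0.12 with CSE 10% at 3 weeks, neither past the test (adjusted p = 0.42 and 0.39). With CSE 10% at 5 weeks it was lower, with -0.30 (adjusted p = 0.0062) against -0.80 for the first.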

How the data were processed

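RNA of A549 cells was hybridised to Affymetrix Human Gene 1.0 ST arrays. The authors corrected, normalized and summarised the probes by RMA in R 2.11.0 and deposited log2 values per transcript cluster, which were used as they stand. No source used here names the genome build of the annotation. RMA values are relative to the other genes of an array, and the deposited arrays still differed in median (6.72 to 6.91) and spread. All 36 arrays entered 1 limma 3.58.1 model of 12 group means in R 4.3.3 (24 residual degrees of freedom, prior proportion 0.01), and p-values of each of the 29 contrasts were adjusted by Benjamini-Hochberg over 33297 transcript clusters. All 43 members may be named, and in the other lists up to 5 genes with the smallest p. Members and lists were chosen with earlier results of these data known. The study calls the replicates independent experiments, and p-values rest on the spread of 3 arrays a group, whose number limits the precision. On simulated data of the comparison of CSE 5% with control at 3 weeks, 18%, 58% and 92% of transcript clusters changed by 0.3, 0.6 and 1.5 (log2) were called. There 50 clusters were changed at each size and 33097 were not. In the data 9.70% were called higher and 9.93% lower, so the adjustment is less strict there and these shares may not carry over. Alternatives were a separate fit, a fit per week, cyclic loess, the 60% brightest transcript clusters, quantile normalization, centring on housekeeping changes, array weights, a trended variance, the mean of a gene's clusters, the replicate number as a block, other control arrays and each array left out.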

Additional observations from a re-analysis of the deposited data

Results flagged for a closer look

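The effect of CSE against control cells of the same week differed between weeks for many members, by a test of the difference itself in limma. Between 3 weeks and 1 week 35 members differed with CSE 1%, 12 with CSE 5% and 28 with CSE 10%, and between 5 weeks and 1 week 30, 18 and 23. The effect was lower at the later week in all of these except 7 with CSE 5% and 4 with CSE 10% at 5 weeks. Of all transcript clusters, 2.16% had a higher and 2.74% a lower effect at 3 weeks than at 1 week with CSE 1%, 1.69% and 1.54% with CSE 5%, and 4.66% and 4.46% with CSE 10%. For 5 weeks against 1 week these shares were 10.8% and 10.2%, 15.1% and 15.7%, and 13.6% and 16.0%.

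With CSE 1%, the effect at 3 weeks minus that at 1 week was -1.02 for MCM3 and -1.73 for DTL. With CSE 5% it was -0.72 for MCM7 and -0.81 for ORC1, and with CSE 10% -1.10 for CCNE1 and -0.96 for ORC1. The effect at 5 weeks minus that at 1 week was -0.86 for MCM3 and -1.02 for MCM7 with CSE 1%, -0.89 for POLD1 and -0.86 for CDT1 with CSE 5%, and -1.04 for CCNE1 and -0.78 for MCM7 with CSE 10%. POLE2, PCNA, RFC3 and RRM1 had a higher effect at 5 weeks than at 1 week with both CSE 5% and CSE 10%, as had TYMS, CCNE2 and CLSPN with CSE 5%. With CSE 5% these are 7 and with CSE 10% 4 of the 43 members, beside 15.1% and 13.6% of all transcript clusters, which is no marked excess. Control cells of 1 week lay below those of 3 weeks in all of these genes, and this difference is part of the values at 3 weeks minus 1 week. In the same way, the difference between control cells of 5 weeks and of 1 week is part of the values at 5 weeks minus 1 week.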

How the results depend on the processing

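Of 291 counts of members changed under an alternative, 233 stayed within 1.5 times the reported count, 53 did not and 5 turned in direction, and of 210 with 1 array left out 177 stayed and 33 did not. The counts named here are members past an adjusted p of 0.05 in limma, and the causes were not tested. Only the arrays compared, fitted separately, gave 5 with CSE 5% at 1 week, 4 and 5 with CSE 1% at 3 and 5 weeks, 8 for CSE 5% against CSE 1% at 3 weeks, 6 for CSE 10% against CSE 5% at 5 weeks, 1 for CSE 10% against CSE 5% at 1 week, where it was higher in place of mostly lower, 8 for control cells and 4 for CSE 10% at 5 against 3 weeks, and 3 for the effect of CSE 5% at 3 weeks minus 1 week. They gave 0 for CSE 10% against CSE 5% at 3 weeks, CSE 5% against CSE 1% at 5 weeks, and CSE 1% and CSE 5% at 5 against 3 weeks (28, 23, 9 and 21 at an unadjusted p under 0.05). This fit has fewer residual degrees of freedom. A fit per week gave 0 for the first and second of these contrasts (26 and 25 unadjusted), 11 with CSE 1% at 5 weeks and 7 for CSE 10% against CSE 5% at 5 weeks. The 60% brightest transcript clusters gave 7 for CSE 10% against CSE 5% at 1 week and 5 for CSE 1% at 5 against 3 weeks. Cyclic loess gave 13 with CSE 5% at 1 week, 5 for CSE 10% against CSE 5% at 3 weeks, and 5, 6 and 5 for CSE 1%, 5% and 10% at 5 against 3 weeks. Quantile normalization gave 21 with CSE 1% at 5 weeks (9 higher and 12 lower), 5 for CSE 10% against CSE 5% at 3 weeks and 7, 5 and 5 at 5 against 3 weeks. Centring on housekeeping genes gave 5 with CSE 1% at 3 weeks, 7 for CSE 10% against CSE 5% at 1 week, 31 for CSE 1% at 3 against 1 week, 2 for CSE 10% at 5 against 3 weeks, and 7 and 16 for the effects of CSE 5% and 10% at 3 weeks minus 1 week. Array weights gave 18 with CSE 5% at 1 week, 10 for CSE 10% against CSE 5% at 1 and at 3 weeks, 26 for both steps at 5 weeks, 10 for control cells and 5, 15 and 8 for CSE 1%, 5% and 10% at 5 against 3 weeks, and 24 for the effect of CSE 5% at 3 weeks minus 1 week.

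Control arrays of weeks 1 and 3 gave 9, 5 and 7 at 5 weeks with CSE 1%, 5% and 10%, and those of week 3, chosen after seeing the data, 3 with CSE 1%. All 9 control arrays, which mix low and high levels of these genes, gave 0 (also 0 unadjusted), 38 and 40 in the comparisons of 1 week, 4, 5 and 18 in those of 3 weeks, and 2, 3 and 8 in those of 5 weeks. Of 1027 log2 fold changes of single members, 907 kept their call, 95 lost it and 25 turned in sign, the last only with other control arrays. With control weeks 1 and 3 these were CDT1 (0.26), MCM2 (0.25) and POLD1 (0.18) with CSE 1%, and ORC1 (0.17), MCM3 (0.23), FEN1 (0.062) and MCM5 (0.18) with CSE 5%, at 5 weeks. With control week 3 they were RRM1 (-0.18), PCNA (-0.035), POLA1 (-0.19) and CLSPN (-0.12) with CSE 1% at 5 weeks. With all 9 they were MCM3 (-0.012), RRM2 (-0.13), GINS1 (-0.097) and TYMS (-0.18) with CSE 1% at 1 week, CCNE1 (-0.26) with CSE 5% at 1 week, ORC1 (0.028), RFC5 (0.0091), POLE2 (0.047), FEN1 (0.024), TYMS (0.34), GINS4 (0.060) and MCM3 (0.17) with CSE 1% at 3 weeks, and MCM2 (0.019) with CSE 1% and MCM3 (0.022) with CSE 5% at 5 weeks.

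With 1 array left out, the counts ran from 5 to 11 with CSE 1% at 3 weeks, 10 to 23 with CSE 1% at 5 weeks, 2 to 4 and 0 to 4 for CSE 10% against CSE 5% at 1 and 3 weeks, 8 to 17 for the same at 5 weeks, 18 to 30 and 3 to 16 for CSE 5% against CSE 1% at 3 and 5 weeks, 8 to 20 for control cells and 0 to 4, 1 to 6 and 0 to 1 for CSE 1%, 5% and 10% at 5 against 3 weeks, and 7 to 13 for the effect of CSE 5% at 3 weeks minus 1 week, 7 being without control replicate 2 or CSE 5% replicate 1 of 3 weeks. Of 528 single values 22 lost their call, those of CDC6 and E2F2 with CSE 5% at 1 week and of GINS4, MCM3, POLE2, PRIM1 and TYMS with CSE 1% at 3 weeks. Deviations of same-numbered arrays correlated at -0.21 to 0.50, over 0.1 for 6 of 27 pairs, so the replicate numbers were not taken to pair the arrays. The exception was CSE 1% against control at 5 weeks, where all 3 pairs were over 0.1 and the block gave 20 members, as without it. With the replicate number as a block, 34 members changed with CSE 1% at 1 week, 39 with CSE 5% and 41 with CSE 10% at 3 weeks, and all counts stayed within 1.5 times those reported.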
